A study of Homo sapiens with 9 samples.

Results

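The 10 genes described here encode secreted proteins of the extracellular matrix or proteins that act on it: THBS1, FN1, SPARC, SPP1, TGFBI, CCDC80, SERPINE2, LOXL2, TIMP1 and VTN. They were chosen by name out of the 27421 genes of the deposited table, all 10 were found, and the choice was made with results of these libraries already known. Which values weighed in the choice is not recorded, so the levels and differences below, those between the groups included, describe the genes and support nothing beyond them. RNA came from Huh7 cells, a long-established liver cancer line of human origin, and was sequenced from poly(A)-selected, strand-specific libraries. The 9 libraries are 3 controls (huh7-control) and 3 of each of 2 arms that the labels name shzmat2-1 and shzmat2-2, written here as shZMAT2-1 and shZMAT2-2, after short hairpins against ZMAT2, a zinc finger protein of the spliceosome. The labels give no vector, time point or clone, do not say what the control cells carried, and do not say whether replicates are separate cultures, so the spread behind each p-value may be technical. In bulk RNA, fewer cells of a kind and less RNA per cell cannot be told apart.

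The matrix outside a cell is built from fibres and large adhesive glycoproteins that cells grip through integrins. Matricellular proteins are secreted into it without being part of its scaffold, and they tune adhesion, growth factor activity and matrix assembly. Enzymes crosslink the fibres, and secreted inhibitors hold the proteases that cut them in check. Hepatocytes secrete vitronectin and plasma fibronectin into the blood, while osteopontin and thrombospondin are known for rising in injured liver and in carcinoma.

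Values are FPKM: the fragments of a gene divided by its length and by the size of the library, which allows levels of different genes to be compared. Depth was 18430000 to 23740000 fragments per library, so 1 FPKM stands for 18.4 to 23.7 fragments per kilobase. ZMAT2 had 36.5 ± 3.32 FPKM (SD, n = 3) in the control, 13.7 ± 1.30 in shZMAT2-1 and 21.1 ± 0.923 in shZMAT2-2, which is 37.6% and 57.7% of the control mean. The log2 difference was -1.35 (limma adjusted p = 0.028) and -0.76 (limma adjusted p = 0.11). The 13 mitochondrially encoded genes took 7.86%, 43.2% and 8.28% of the fragments in control replicates 1 to 3, 8.25%, 16.4% and 7.70% in shZMAT2-1 and 27.0%, 14.5% and 16.6% in shZMAT2-2. The markers of the labelled cell type were present in every library, with a summed level of the 8 hepatocyte markers of 2943 to 5437 FPKM in the control, 4173 to 5281 in shZMAT2-1 and 3550 to 4306 in shZMAT2-2. The 7 fibroblast and stellate cell markers summed to 1.57 to 3.73, 3.04 to 4.25 and 1.79 to 2.97 FPKM, with DCN, a defining fibroblast proteoglycan, at 0.0067 FPKM or less. COL1A2 stood at 0.558 to 2.31 FPKM and PDGFRB at 0.434 to 1.57 over the 9 libraries. The part of these 7 markers in the results was not tested. The 5 leukocyte markers summed to 0.0895 to 0.232 FPKM over all libraries, and of the 4 endothelial markers in the table only PECAM1 passed 0.1 FPKM, with the 4 summing to 1.04 to 1.70, 1.02 to 1.14 and 0.695 to 0.745 FPKM in the 3 groups.

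In the controls these genes spanned about 3 orders of level. FN1 ranked 47th to 94th and VTN 61st to 151st of the 27421 genes, TGFBI ranked 438th to 518th, and CCDC80 ranked 13773rd to 14204th. The lowest value behind any of them was CCDC80 in control replicate 2, with 4.51 fragments per kilobase, and CCDC80 passed the expression limit of 1 FPKM in 3 libraries through the knockdown arms alone, since 0 of its 3 control libraries reached it. LOXL2 and TIMP1 reached it in 2 of 3 controls and the other 7 genes in all 9 libraries.

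Of the 10 genes, 8 were higher in every shZMAT2-2 library than in any control library, all but TIMP1 and VTN, and 0 were lower. Of all 11245 tested genes 11.9% were higher and 1.52% lower without overlap in that comparison. In shZMAT2-1 it was 6 of 10 higher, beside 9.10%, and 0 lower, beside 1.83%. Those 6, THBS1, SPARC, TGFBI, CCDC80, SERPINE2 and LOXL2, lay above the controls in both arms, beside 4.69% of all tested genes (0.685% lower), but both arms are set against the same 3 control libraries. CCDC80 is in each of these counts of higher genes. It was tested only through the arms, where it is high, so its place in them adds nothing. The size of the change differed between genes: THBS1, CCDC80, SERPINE2 and LOXL2 stepped up from control to shZMAT2-1 to shZMAT2-2, SPARC and TGFBI stood at like levels in both arms, and SPP1 stood apart in shZMAT2-2. FN1 and TIMP1 moved little against their spread, and VTN varied more within groups than between them.

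In limma's test on log2(FPKM + 1), with Benjamini-Hochberg adjustment over all 11245 tested genes, 4 of the 10 genes passed in shZMAT2-2 (THBS1, SPP1, CCDC80 and SERPINE2), all higher, where 0.507% of all genes were called higher and 0.0800% lower. In shZMAT2-1 0 passed, while 6 had an unadjusted p under 0.05 (648 of all 11245 genes), and 0.0622% of all genes were called higher and 0.0178% lower. In the mean of both arms CCDC80 and SERPINE2 passed, 2 of 10 beside 0.454% called higher and 0.0889% lower. CCDC80 entered the test only through the arms, where it is high, and without it the counts are 3 of 9 in shZMAT2-2 and 1 of 9 in the mean of both arms. The median log2 difference of the 10 genes was 0.53 in shZMAT2-1 and 0.69 in shZMAT2-2, beside 0.16 and 0.05 for all tested genes, and 0.51 and 0.58 without CCDC80. Without control replicate 2 the medians of all tested genes were -0.05 and -0.15. The estimates of the 10 genes in shZMAT2-1 were all lower in that fit too, from -0.05 for FN1 to 0.57 for CCDC80. Their median in it was not computed, so 0.53 and 0.69 are not to be set beside these 2 medians. The count in shZMAT2-2 was 5 without control replicate 2 and 3 without shZMAT2-1 replicate 2. Those fits called 270 and 57 of all tested genes in either direction, beside 66 with all libraries. It was 0 without shZMAT2-2 replicate 2 or 3, where 0 of all tested genes were called. It was 1 (CCDC80) when any other single library was left out, beside 8 to 26 of all tested genes. The count in the mean of the arms was 2 without control replicate 2, beside 150 of all tested genes, where 61 were called with all libraries. It was 0 without control replicate 1 or 3, beside 23 and 6 of all tested genes. It was 1 (CCDC80) without any single library of the arms, beside 15 to 43.

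**Figure D1:**
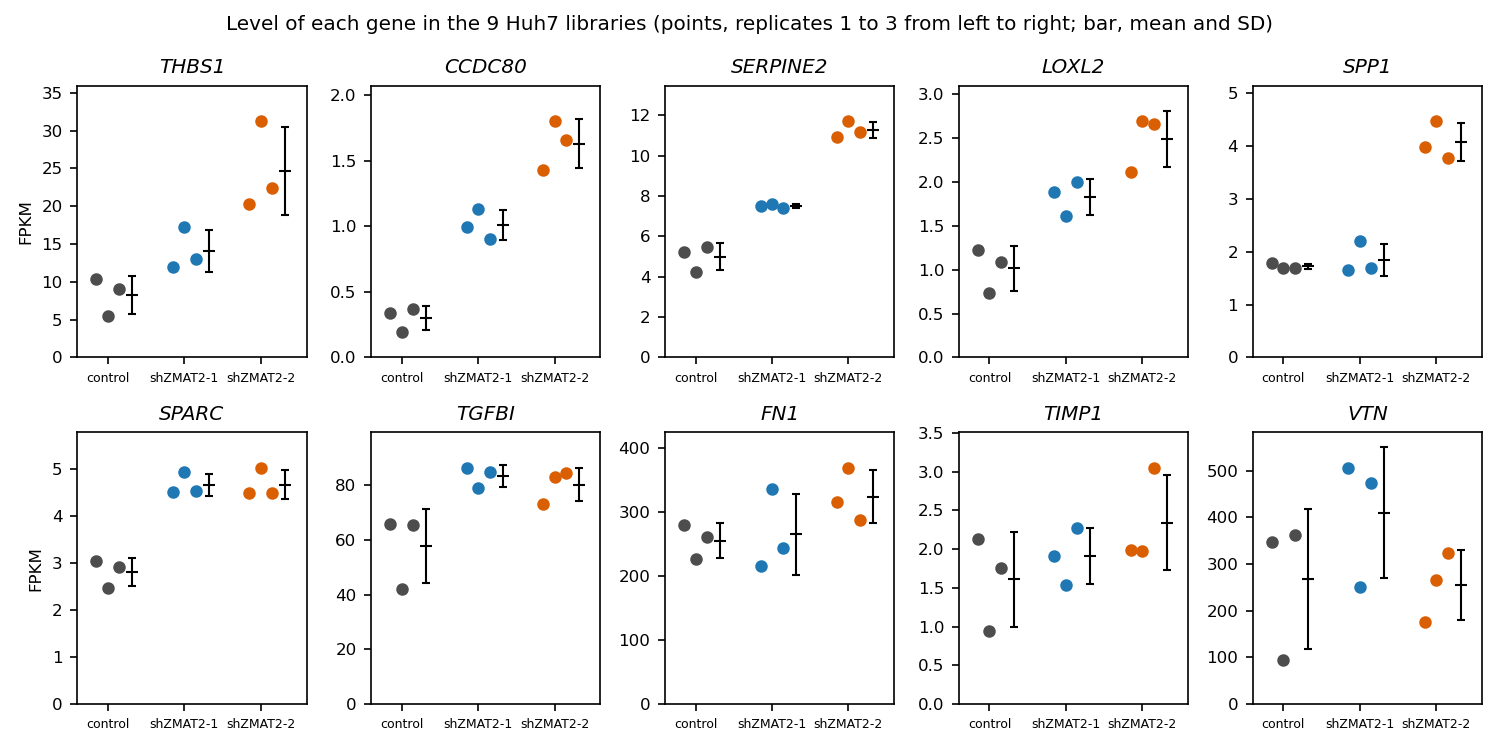
Level of the 10 genes in FPKM (y axis, from 0) in the control, shZMAT2-1 and shZMAT2-2 libraries; points are replicates 1 to 3 from left to right and the bar beside them is the mean and SD. THBS1, CCDC80, SERPINE2 and LOXL2 rise in steps, SPP1 stands apart in shZMAT2-2 only, and in 8 of the 10 genes control replicate 2 is the lowest of the 9 libraries.

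**Figure D2:**
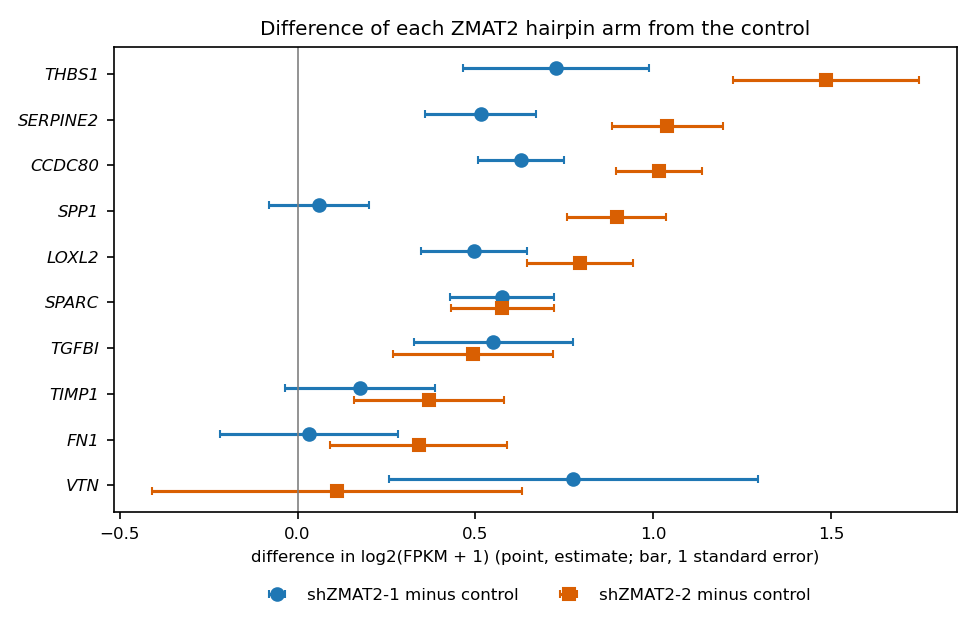
Difference of each hairpin arm from the control in log2(FPKM + 1) (x axis), with 1 standard error, for each gene (y axis, ordered by shZMAT2-2). THBS1 has the highest estimate in shZMAT2-2 at 1.48, and the bars of VTN are the widest, with a standard error of 0.52.

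Thrombospondin 1, the product of THBS1 (ENSG00000137801, chromosome 15, 39581079 to 39599466), is a matricellular glycoprotein that activates latent TGF-beta and restrains blood vessel growth. Its level was 10.3, 5.50 and 9.03 FPKM in the control libraries, 12.0, 17.2 and 13.1 in shZMAT2-1, and 20.3, 31.2 and 22.5 in shZMAT2-2. The 3 groups did not overlap, and the highest library was shZMAT2-2 replicate 2. The difference from control in log2(FPKM + 1) was 0.73 in shZMAT2-1 (SE 0.26, limma adjusted p = 0.65) and 1.48 in shZMAT2-2 (SE 0.26, limma adjusted p = 0.040). Over the fits without 1 library the estimate in shZMAT2-2 was 1.25 to 1.65, with limma adjusted p from 0.024 to 0.24. A transcript annotated within a THBS1 intron on the same strand, THBS1-IT1, had 0.201, 0 and 0.284 FPKM in the control, 0.592, 0.596 and 0.468 in shZMAT2-1 and 0.705, 0.517 and 1.24 in shZMAT2-2, also without overlap between control and arms. It passed 1 FPKM only in shZMAT2-2 replicate 3 and so was not tested. Its control values are near the floor, as 3 fragments on 1 kilobase make 0.126 to 0.163 FPKM. Fragments of the unspliced THBS1 transcript and of THBS1-IT1 cannot be told apart by strand.

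The 250 bases before the start, from RefSeq (GRCh38.p14), were used for 9 of the 10 genes (10 windows, as SERPINE2 has 2), and no window of LOXL2 was analysed here. They were searched on both strands for 5 motifs: GGAATG, the core read by TEAD factors, TGANTCA, read by AP-1, TGACGTCA, the cyclic AMP response element, the CCAAT box (CCAAT) and the GC box (GGGCGG). The stretch before THBS1 is shown because THBS1 had the highest estimate in shZMAT2-2 and is the only one of the 4 genes called there with a match to any of the first 3 motifs. The stretch before FN1, an abundant gene that was not called, is set beside it, limited to the bases outside annotated exons. Capitals mark the match, at 46 to 41 bases before the start of THBS1 (GGAATG) and 183 to 176 before that of FN1 (TGACGTCA).
THBS1, chr15:39580829-39581078, plus strand: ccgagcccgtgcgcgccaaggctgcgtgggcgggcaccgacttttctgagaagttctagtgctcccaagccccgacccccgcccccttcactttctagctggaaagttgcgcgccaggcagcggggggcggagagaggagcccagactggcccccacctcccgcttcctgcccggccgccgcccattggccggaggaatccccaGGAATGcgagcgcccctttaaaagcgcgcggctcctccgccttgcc
FN1, chr2:215436173-215436252, minus strand: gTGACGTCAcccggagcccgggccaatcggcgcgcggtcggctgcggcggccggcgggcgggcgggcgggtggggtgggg
GGAATG also occurred in the windows of SPARC and VTN, so 3 of the 9 genes held it, beside 11.9% of 35116 windows of this length. TGACGTCA occurred in FN1 alone of the 9, beside 1.65%, and TGANTCA in 0 of the 9, beside 6.57%. The CCAAT box, present in 32.01% of windows, was found in FN1, SERPINE2, THBS1 and VTN, and the GC box, present in 42.6%, in FN1, SERPINE2, TGFBI, THBS1 and TIMP1, with GC boxes that overlap each other in FN1. SPP1 and CCDC80 held none of the 5. A match is a description of these letters, not a site of binding.

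CCDC80, a secreted protein that binds matrix and is best known from fat cells (ENSG00000091986, chromosome 3, 112596797 to 112649530), was the gene with the largest ratio. It had 0.338, 0.197 and 0.366 FPKM in the control, 0.996, 1.13 and 0.899 in shZMAT2-1 and 1.43, 1.80 and 1.66 in shZMAT2-2. The groups did not overlap, and the arms' means were 3.36 and 5.42 times the control mean. The log2(FPKM + 1) scale shrinks differences at this level, to 0.63 (SE 0.12, limma adjusted p = 0.12) and 1.02 (SE 0.12, limma adjusted p = 0.0087). In the mean of both arms it was 0.82 (limma adjusted p = 0.010, and 0.0105 to 0.0559 over the fits without 1 library).

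SPARC, also called osteonectin, binds collagen and calcium and loosens cell adhesion (ENSG00000113140, chromosome 5, 151661096 to 151686975). Its level was 3.03, 2.47 and 2.91 FPKM in the control, 4.52, 4.93 and 4.53 in shZMAT2-1 and 4.48, 5.02 and 4.49 in shZMAT2-2. All 6 arm libraries lay above the controls and the arms overlapped each other, with means 1.66 times the control mean in both. The log2 differences of 0.57 and 0.58 (SE 0.14) missed the threshold (limma adjusted p = 0.29 and 0.18). The direct difference between the arms was 0.00 with the same standard error.

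SPP1 encodes osteopontin, a secreted phosphoprotein that binds integrins and CD44 (ENSG00000118785, chromosome 4, 87975667 to 87983532). It had 1.78, 1.69 and 1.70 FPKM in the control, 1.66, 2.20 and 1.69 in shZMAT2-1 and 3.99, 4.47 and 3.78 in shZMAT2-2. The 3 shZMAT2-2 libraries stood above all 6 others, while control and shZMAT2-1 overlapped. The difference from control was 0.06 in shZMAT2-1 (SE 0.14, limma adjusted p = 0.88) and 0.90 in shZMAT2-2 (SE 0.14, limma adjusted p = 0.023). Between the arms it was 0.84 (SE 0.14), with an unadjusted p of 0.00014 and a limma adjusted p of 0.66. In that direct comparison of the arms limma called 0% of all 11245 genes in either direction, while 465 had an unadjusted p under 0.05.

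The direct comparison of the arms bears on the other stepped genes as well. Of the 10 genes, 5 were higher in every shZMAT2-2 than in any shZMAT2-1 library (THBS1, SPP1, CCDC80, SERPINE2 and LOXL2), beside 5.59% of all tested genes, and 0 were lower, beside 9.28%. CCDC80, one of the 5, was tested only through the arms, where it is high. Of the 10, 4, with CCDC80 among them, had an unadjusted p under 0.05 and none passed after adjustment. ZMAT2 itself was lower in shZMAT2-1 than in shZMAT2-2, by 0.59 in log2(FPKM + 1) (limma unadjusted p = 0.0067, adjusted p = 0.66), and did not pass either. The arm with the lower ZMAT2 level thus had the lower levels of these 5 genes. The hairpin and the depth of knockdown cannot be told apart with 1 arm at each level.

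SERPINE2, or protease nexin 1, is a secreted serpin that inhibits thrombin, plasmin and urokinase (ENSG00000135919, chromosome 2, 223975045 to 224039318). Its level was 5.25, 4.23 and 5.49 FPKM in the control, 7.52, 7.62 and 7.41 in shZMAT2-1 and 10.9, 11.7 and 11.2 in shZMAT2-2, with no overlap between any of the 3 groups. The log2 difference was 0.51 in shZMAT2-1 (SE 0.16, limma adjusted p = 0.47) and 1.04 in shZMAT2-2 (SE 0.16, limma adjusted p = 0.020). In the mean of both arms it was 0.78 (limma adjusted p = 0.039), and over the fits without 1 library that adjusted p ran from 0.015 to 0.17.

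LOXL2, a lysyl oxidase that crosslinks collagen, lies on chromosome 8 (ENSG00000134013, 23296897 to 23425328). It had 1.23, 0.731 and 1.09 FPKM in the control, 1.89, 1.61 and 2.00 in shZMAT2-1 and 2.11, 2.69 and 2.66 in shZMAT2-2. The groups did not overlap, with means 1.80 and 2.45 times the control mean. The log2 difference in shZMAT2-2 was 0.79 (SE 0.15) and missed the threshold (limma adjusted p = 0.054), but passed without control replicate 2 (limma adjusted p = 0.031). The annotation places ENTPD4 over the same stretch and strand, so fragments there may be shared, and ENTPD4 had means of 7.21, 7.61 and 7.41 FPKM in the 3 groups. TIMP1, the tissue inhibitor of matrix metalloproteinases (ENSG00000102265, chromosome X, 47582408 to 47586789), had 2.14, 0.937 and 1.76 FPKM in the control, 1.91, 1.54 and 2.27 in shZMAT2-1 and 1.99, 1.98 and 3.05 in shZMAT2-2. All 3 groups overlapped, and the log2 differences of 0.18 and 0.37 (SE 0.21) missed the threshold (limma adjusted p = 0.81 and 0.91).

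Among the adhesive glycoproteins, TGFBI, a TGF-beta induced protein that links collagens to integrins (ENSG00000120708, chromosome 5, 136028988 to 136063818), had 65.7, 42.2 and 65.3 FPKM in the control, 86.3, 79.0 and 84.8 in shZMAT2-1 and 73.2, 83.1 and 84.4 in shZMAT2-2. All arm libraries lay above the controls, and the arms overlapped. The log2 differences of 0.55 and 0.49 (SE 0.22) missed the threshold (limma adjusted p = 0.79 and 0.73). Without control replicate 2 they were 0.34 and 0.29. FN1, fibronectin, the main adhesive protein of the matrix (ENSG00000115414, chromosome 2, 215360440 to 215436073), had 279, 226 and 261 FPKM in the control, 216, 336 and 243 in shZMAT2-1 and 315, 369 and 288 in shZMAT2-2. The shZMAT2-2 libraries lay just above the controls and shZMAT2-1 spanned both groups. Its differences were 0.03 and 0.34 (SE 0.25, limma adjusted p = 0.96 and 1.0). FN1 is known for alternatively spliced segments, which a level per gene does not show.

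VTN encodes vitronectin, an adhesive plasma glycoprotein made by hepatocytes that binds integrins and plasminogen activator inhibitor 1 (ENSG00000109072, chromosome 17, 28367284 to 28373091). Its level was 347, 94.6 and 362 FPKM in the control, 506, 250 and 475 in shZMAT2-1 and 175, 267 and 323 in shZMAT2-2. Within each group the lowest library was the one with the highest mitochondrial share, and control replicate 2 had 26.7% of the mean of the other controls. The log2 differences from control, 0.77 and 0.11, had a standard error of 0.52 (limma adjusted p = 0.81 and 1.0), and without control replicate 2 they were 0.14 and -0.52. Over the 9 libraries log2(FPKM + 1) of VTN fell with the mitochondrial share at Pearson r = -0.96 (exact permutation p = 0.00027, adjusted p = 0.0027 over the 10 genes) and Spearman rho = -0.87 (exact permutation p = 0.0045, adjusted p = 0.045). The permutation exchanged libraries across groups, so these p-values mix differences between groups with those within them. FPKM are divided by a library size that includes mitochondrial fragments, so a higher share by itself lowers the FPKM of nuclear genes. How much of r this makes was not tested, and r with the share was not computed for all tested genes. Without control replicate 2 and shZMAT2-2 replicate 1, the libraries farthest from the median share, r was -0.79. With each group centred on its own mean, log2 of the summed mitochondrial FPKM and the VTN level correlated at r = -0.98 over the 9 libraries, and at -0.93 without control replicate 2, chosen after seeing the data. These within-group values have no test.

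For the other 9 genes r ran from -0.73 in TGFBI to 0.16 in SPP1, with two-sided exact permutation p values from 0.056 to 0.89 (0.28 to 0.89 adjusted over the 10 genes). Spearman's rho ran from -0.43 in TGFBI to 0.45 in SPP1, with exact permutation p values from 0.23 to 1.0 (0.77 to 1.0 adjusted). Without the same 2 libraries r was positive in all 9, from 0.16 in TIMP1 to 0.81 in THBS1. Where this r, taken across all groups, was negative, its sign thus depended on those 2. That r mixes differences between groups with those within them. With each group centred, r with log2 of the summed mitochondrial FPKM was -0.97 for TGFBI, -0.94 for LOXL2, -0.87 for SERPINE2, -0.82 for TIMP1, -0.62 for SPARC, -0.61 for THBS1, -0.54 for CCDC80, -0.09 for FN1 and 0.16 for SPP1. Without control replicate 2 it was -0.89 for TGFBI, -0.93 for LOXL2 and -0.55 for TIMP1, and between -0.23 and 0.51 for the other 6. These values of r were not computed for all tested genes, so no background stands beside them. The FPKM of these genes and the mitochondrial level share the library size as divisor. In shZMAT2-1 as well, TGFBI, LOXL2 and TIMP1 were lowest in the library with the highest share.

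**Figure D3:**
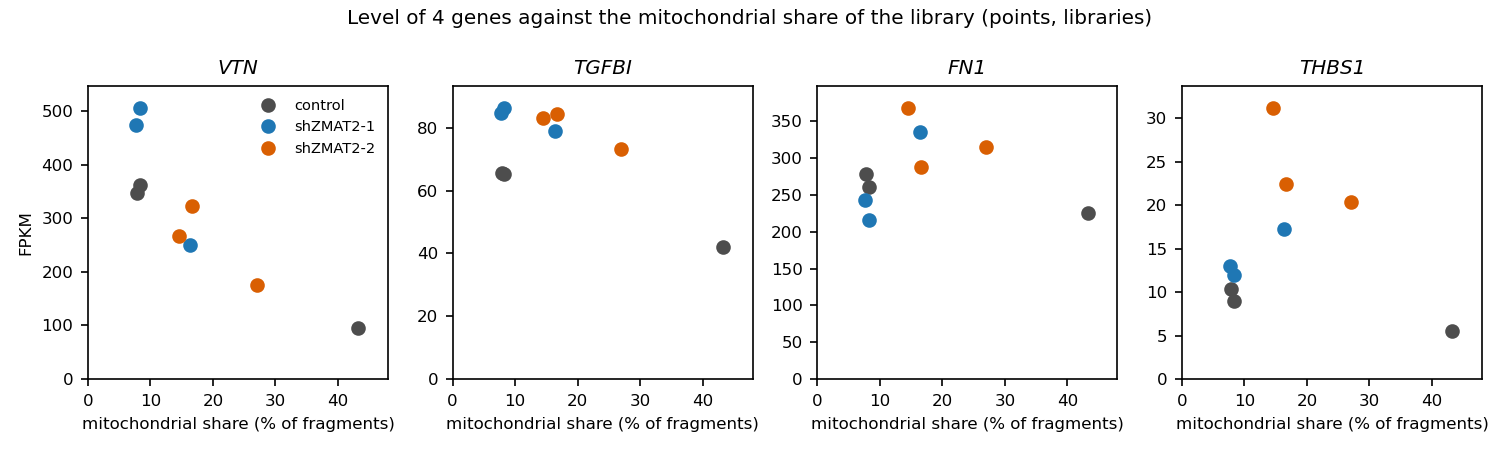
Level of VTN, TGFBI, FN1 and THBS1 in FPKM (y axes, from 0) against the mitochondrial share of fragments (x axis, percent); points are libraries, coloured by group. VTN falls from 506 FPKM at a share of 8.25% to 94.6 at 43.2%, and in THBS1 the shZMAT2-2 libraries lie above the others at shares of 14.5% to 27.0%.

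Some libraries of different groups had like shares, and their levels can be set side by side without a test. At shares of 7.70% to 8.28% stood 2 control and 2 shZMAT2-1 libraries. There THBS1 had 9.03 to 10.3 against 12.0 to 13.1 FPKM, SPARC 2.91 to 3.03 against 4.52 to 4.53, and SERPINE2 5.25 to 5.49 against 7.41 to 7.52. Of the 10 genes, 7 (those 3 with TGFBI, CCDC80, LOXL2 and VTN) were higher in shZMAT2-1 without overlap, beside 35.3% of all tested genes, while FN1 and SPP1 were lower without overlap, beside 37.5%. The ratio of the means was 1.30 for THBS1, 1.52 for SPARC, 2.69 for CCDC80 and 0.850 for FN1. At shares of 14.5% to 16.6% stood 1 shZMAT2-1 and 2 shZMAT2-2 libraries. SPP1 had 2.20 against 3.78 to 4.47 FPKM there, THBS1 17.2 against 22.5 to 31.2, and SERPINE2 7.62 against 11.2 to 11.7. Of the 10 genes, 8 (all but FN1 and SPARC) were higher in both shZMAT2-2 libraries, beside 36.5% of all tested genes, and 0 were lower, beside 22.8%. No control library fell in that range, so shZMAT2-2 and control cannot be compared at a like share. CCDC80 is among the 7 and among the 8, and was tested only through the arms, where it is high.

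With the log2 mitochondrial level as a covariate in the fit, 5, 7 and 8 of the 10 genes passed in shZMAT2-1, shZMAT2-2 and the mean of both arms, all higher, where the same fit called 419, 1107 and 1096 of all tested genes in either direction. The 7 in shZMAT2-2 were THBS1, SPARC, SPP1, TGFBI, CCDC80, SERPINE2 and LOXL2, and FN1 and TIMP1 passed in none of the comparisons. With each library rescaled to the same sum (TPM) the counts were 0, 0 and 0, and that fit called 0, 0 and 1 of all tested genes.

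Other genes of the same pathways were taken from 5 lists drawn up with earlier results of these libraries known. In the mean of both arms 71.8% of all 11245 tested genes were estimated higher and 779 had an unadjusted p under 0.05. Of 27 other matricellular and matrix glycoproteins, 11 were tested and 7 were estimated higher over both arms, beside 71.8% of all tested genes. Limma called 2 of the 11 higher, beside 0.454% of all tested genes, and the median was 0.24, beside 0.10. NPNT, nephronectin, a ligand of integrin alpha 8, rose from 2.28, 1.55 and 2.30 FPKM to 4.54, 5.18 and 5.20 in shZMAT2-1 and 5.61, 6.23 and 4.81 in shZMAT2-2, by 1.05 on the log2 scale in the mean of both arms (limma adjusted p = 0.014). CCN1, a matricellular integrin ligand, rose by 1.02 (limma adjusted p = 0.033), with means of 20.1, 38.7 and 44.9 FPKM. THBS4, a thrombospondin like THBS1, went the other way, with 22.4 ± 5.80, 17.3 ± 1.27 and 9.59 ± 1.04 FPKM (SD, n = 3 each), a difference of -0.72 that did not pass (limma adjusted p = 0.20). Its level in shZMAT2-2 differed from control by -1.12 (limma adjusted p = 0.064), while THBS1 was higher there.

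Of 26 collagens and collagen-modifying enzymes, 16 were tested and 11 had a higher estimate, beside 71.8% of all tested genes, with a median of 0.13. In the mean of both arms limma called 0, and 1 had an unadjusted p under 0.05, beside 779 of 11245. LOXL4, a lysyl oxidase of the same family as LOXL2, had 9.47 ± 4.14 FPKM in the control, 21.9 ± 3.68 in shZMAT2-1 and 30.5 ± 4.17 in shZMAT2-2 (SD, n = 3 each). It rose by 1.67 in shZMAT2-2 (limma adjusted p = 0.049) and was at 1.44 in the mean of both arms (limma adjusted p = 0.052). LOX, the founding lysyl oxidase, had means of 28.1, 18.7 and 24.1 FPKM and COL27A1, a fibrillar collagen, 6.22, 4.39 and 5.49, and neither passed (limma adjusted p = 0.78 and 0.74). The lysyl oxidases thus did not share 1 direction in their estimates.

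Of 25 matrix proteases and inhibitors, 18 were tested and 16 had a higher estimate, beside 71.8% of all tested genes, with a median of 0.32. In limma's test 1 passed, as lower, beside 0.0889% of all tested genes. That gene was PLG, plasminogen, the precursor of a protease that SERPINE2 inhibits, which fell from 4.44, 2.94 and 4.91 FPKM to 1.59, 1.79 and 1.89 in shZMAT2-1 and 1.23, 1.38 and 1.55 in shZMAT2-2, with a difference of -0.97 on the log2 scale (limma adjusted p = 0.020). TIMP2, the paralogue of TIMP1, had 1.81 ± 0.0532, 2.47 ± 0.193 and 3.40 ± 0.0855 FPKM (SD, n = 3 each, limma adjusted p = 0.13), and MMP24, a membrane metalloproteinase, had means of 0.559, 1.27 and 0.956 FPKM (limma adjusted p = 0.22). MMP24 had 0.450 to 0.706 FPKM in the controls, so it entered the test only through the arms, where it is high.

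Of 18 cell-surface receptors for these proteins, 9 were tested and 7 had a higher estimate, beside 71.8% of all tested genes, with a median of 0.38. In limma's test 0 passed, while 4 had an unadjusted p under 0.05, beside 779 of 11245. CD47, a thrombospondin receptor, had 0.944 ± 0.396, 1.86 ± 0.126 and 1.74 ± 0.222 FPKM (SD, n = 3 each, limma adjusted p = 0.21). SDC4, a heparan sulfate proteoglycan that works with fibronectin, had means of 47.9, 98.8 and 63.5 FPKM, and ITGA5, the fibronectin receptor's alpha chain, 16.9, 34.3 and 20.7 (limma adjusted p = 0.48 and 0.53). Of 15 TGF-beta ligands, carriers, receptors and SMADs, 12 were tested and 10 had a higher estimate, beside 71.8% of all tested genes. The median was 0.11, beside 0.10. In limma's test 0 passed, while 1 had an unadjusted p under 0.05, beside 779 of 11245. TGFB1 had means of 15.1, 10.1 and 11.3 FPKM, TGFB2 2.74, 3.19 and 6.06, and SMAD7, an inhibitor that the pathway induces, 8.48, 12.9 and 10.01 (limma adjusted p = 0.45, 0.80 and 0.92).

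**Figure D4:**
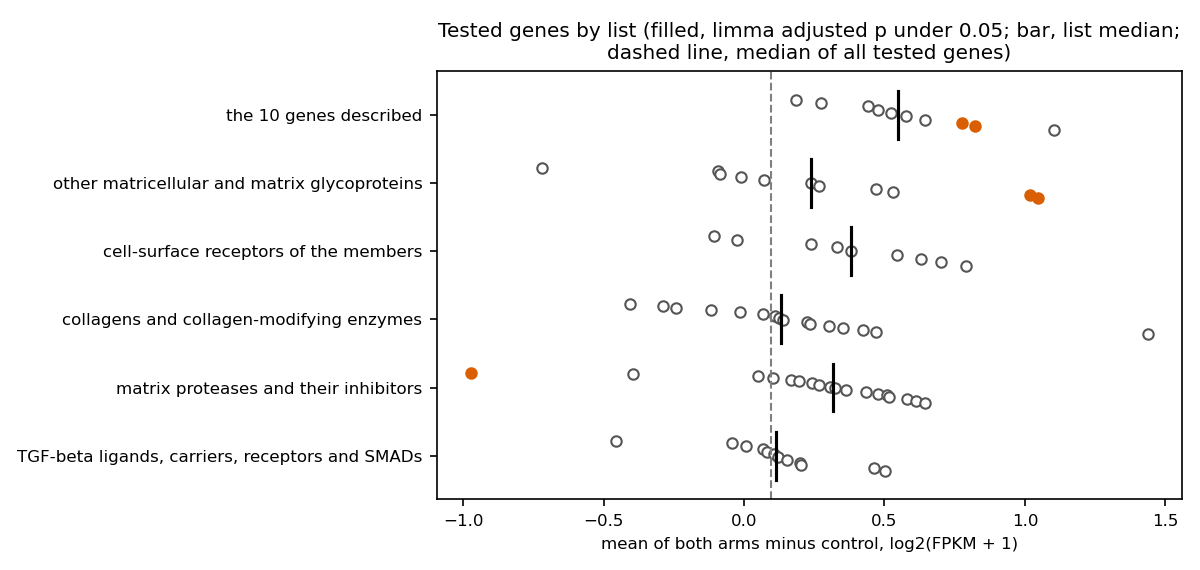
Mean of both arms minus control in log2(FPKM + 1) (x axis) for the tested genes of each list (y axis); filled points passed at a limma adjusted p under 0.05, black bars are list medians and the dashed line is the median of all tested genes at 0.10. CCDC80 and SERPINE2 are the filled points among the 10 genes, NPNT and CCN1 those among the other glycoproteins, and PLG the one on the left.

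The genes whose levels ran most alike over the 9 libraries were sought among up to 6369 protein-coding genes that averaged 5 FPKM or more in some group, by Pearson's r of log2(FPKM + 1), as a description of libraries that share group and mitochondrial share. For LOXL2 the closest was its relative LOXL4 (r = 0.98), followed by RASD1 (r = 0.98), a small GTPase. For SPARC it was NPNT (r = 0.99) and then PVR (r = 0.99), a cell adhesion receptor. SPP1 ran with SULF2, an extracellular heparan sulfate sulfatase (r = 0.99), which had means of 3.54, 3.81 and 7.42 FPKM and so was also apart in shZMAT2-2 only, and with YWHAZ (r = 0.95). THBS1 ran with PPL and SYNPO (both r = 0.98), which encode periplakin and the actin-binding synaptopodin. SERPINE2 and CCDC80 had GSTM4, a glutathione transferase, in common (r = 0.98 and 0.99), and beside it HABP2, a hyaluronan-binding protease, for SERPINE2 (r = 0.98) and OR2I1P for CCDC80 (r = 0.99). TGFBI ran with WDR1 and CAVIN1 (both r = 1.00), FN1 with SEPTIN11 and ZNF664 (both r = 0.99), and TIMP1 with FTSJ1 (r = 0.98) and OS9 (r = 0.95). VTN ran with MYL12B and ID3 (both r = 1.00), which like VTN were lowest in control replicate 2, at 63.9 and 50.9 FPKM beside 199 to 204 and 157 to 158 in the other controls.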

How the data were processed

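Per the labels' protocols, poly(A) RNA of 9 Huh7 samples was made into strand-specific libraries. The deposited values are FPKM per gene, made by the authors. Per the submitters' processing notes the tools were DESeq2, HISAT and featureCounts (no versions). No genome build is named, so it counts as not given in the sources used here. Coordinates are those of the deposited table, and all 10 genes overlap their GENCODE 29 position. Depth was recovered from 1542 single-exon genes as the number of fragments, rounded to 10000, that makes low values whole within 0.1 fragments, which held for 100% of 719 to 830 values per library. No replicate columns were identical, and the closest pair had a chi-square of 3.68 per degree of freedom.

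The 11245 genes that reached 1 FPKM in 3 or more libraries were fitted with limma 3.58.1 (R 4.3.3) on log2(FPKM + 1) with a trend, the group as the only term and all 9 libraries. The threshold for a call was 0.05 for the two-sided p after Benjamini-Hochberg adjustment. Fold changes on this scale understate the change of low genes. The procedure was run on simulated data whose noise was independent between genes. Those data lack differences between libraries that many genes share, such as those with the mitochondrial share, so they cannot test their effect. The 10 genes and all lists were chosen with earlier results of these data known. Genes named from the lists are up to 3 per list with the smallest adjusted p in the mean of both arms that averaged 1 FPKM or more in some group, any called in a comparison, and for each of the 10 genes the 2 of most like pattern. Correlations used exact permutation over 9 libraries. Alternatives were other pseudocounts, filters, scalings, fits and samples. Python 3.11.15, numpy 2.4.6, pandas 2.3.3 and matplotlib 3.10.9 did the rest.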

Additional observations from a re-analysis of the deposited data

How the results depend on the processing

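Counts are of the 10 genes called in shZMAT2-1, shZMAT2-2 and the mean of both arms, which were 0, 4 and 2. The replicate block gave 0, 1 and 1, with CCDC80 left, but the numbers do not pair the libraries: deviations of same-numbered libraries correlated above 0.1 in 6 of 9 pairs (-0.76 to 0.78), and 3 of 9 libraries correlated best with their own number. A filter of 5 FPKM, under which 5 of the genes were tested, gave 0, 1 and 0, TPM scaling 0, 0 and 0, and fitting only the groups compared 0 and 0. Median-of-ratios scaling and quantile normalization each gave 1, 5 and 4, nuclear scaling 0, 4 and 4, and the mitochondrial covariate 5, 7 and 8. Of all tested genes the main fit called 9, 66 and 61 in either direction. Median-of-ratios scaling called 77, 194 and 203, quantile normalization 79, 195 and 209, and nuclear scaling 55, 161 and 180. The covariate called 419, 1107 and 1096 and the replicate block 13, 52 and 58. The 5 FPKM filter called 4, 15 and 25 of the genes it kept, TPM scaling 0, 0 and 1, and fitting only the groups compared 0 and 0. Leaving out 1 library gave 0 to 0, 0 to 5 and 0 to 2, beside 0 to 33, 0 to 270 and 6 to 150 of all tested genes. Dropping both control replicate 2 and shZMAT2-2 replicate 1, chosen after seeing the data, gave 0, 5 and 2, beside 19, 94 and 81. A pseudocount of 0.1, no filter and no trend gave counts within 1 of the main ones. Between the arms the count was 0 under every setting run. The causes were not tested. Scaling moved the median of all tested genes in shZMAT2-1 from 0.16 to 0.37 (TPM), 0.00 (median-of-ratios, quantile) and -0.03 (nuclear), and between the arms from -0.09 to -0.31 (TPM) and 0.11 (nuclear).

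No estimate that was called changed sign. Of those not called, in shZMAT2-1 FN1 was at -0.17, -0.20 and -0.21 and SPP1 at -0.08, -0.05 and -0.10 under median-of-ratios, quantile and nuclear scaling. Without the 2 libraries of highest mitochondrial share FN1 and TIMP1 were at -0.05 and -0.02 in shZMAT2-1, VTN at -0.27 in shZMAT2-2 and -0.06 in the mean of both arms, and TGFBI at 0.01 between the arms. Between the arms SPARC was at -0.21 with TPM, TGFBI at 0.07, 0.23, 0.19 and 0.14 under median-of-ratios, quantile, nuclear scaling and the covariate, and VTN at 0.01 with the covariate. Without 1 library FN1 ran from -0.15 to 0.17, SPP1 from -0.03 to 0.11 and TIMP1 from -0.02 to 0.32 in shZMAT2-1, VTN from -0.52 to 0.44 in shZMAT2-2 and -0.19 to 0.77 in the mean of both arms, and between the arms SPARC from -0.04 to 0.04 and TGFBI from -0.10 to 0.01. Depth limits CCDC80 most, at 4.51 fragments per kilobase in its lowest library.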

Other observations

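PLAU, urokinase, a protease that SERPINE2 inhibits, was named after its values were seen. It had 0.765, 0.267 and 0.829 FPKM in the control, 2.69, 1.47 and 2.99 in shZMAT2-1 and 0.452, 0.986 and 0.786 in shZMAT2-2. The shZMAT2-1 libraries lay above the other 6 and were the only ones to reach 1 FPKM, so the gene entered the test through the group where it is high. The difference from control in shZMAT2-1 was 1.05 on the log2(FPKM + 1) scale (limma adjusted p = 0.17).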
